A study of Coturnix japonica with 54 samples.

Results

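CGA encodes the alpha subunit that follicle-stimulating hormone, luteinising hormone and thyroid-stimulating hormone share, and it is described here over a simulated annual cycle of day length in the pituitary gland of male Japanese quail (Coturnix japonica). It was found by its gene identifier in both deposited tables and is 1 of the 16448 genes listed there. It has 1 transcript, XM_015858882.2, so that its count needs no sum over transcripts. The study housed birds on 16 h of light, lowered the day length in steps of 2 h to 8 h and raised it again, with 2 weeks at each step. The 9 photoperiods are, in order, 16La, 14La, 12La, 10La, 8L, 10Lv, 12Lv, 14Lv and 16Lv, where the number is the hours of light, a marks the autumn-like decline and v the spring-like increase. Each holds 6 birds, sequenced 1 library per bird with Oxford Nanopore long reads of polyadenylated RNA, and the labels name no genotype, strain or drug. All birds were male and began on 16 h of light with 8 h of dark, and birds for tissue were picked at the end of each step with regard to body mass. Photoperiod and time in the study advanced together and cannot be told apart.

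A glycoprotein hormone is a pair of an alpha subunit and a beta subunit, and the beta subunit gives the hormone its receptor specificity. Gonadotrophs make CGA with FSHB and LHB, and thyrotrophs make it with TSHB. In long-day breeding birds such as quail, light reaches deep brain receptors, and thyrotrophin from the pars tuberalis then acts on the hypothalamus, which drives gonadotrophin release. CGA is therefore a transcript of several pituitary cell types, and in whole glands fewer cells of a type and less RNA per cell cannot be told apart.

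The libraries were shallow. A library held 4828 to 156493 estimated counts, with a median of 39678, and 544 to 9753 genes had a count in it. The prolactin gene PRL, marking lactotrophs, and POMC, the precursor of adrenocorticotrophin marking corticotrophs, were detected in all 54 birds, as in a pituitary. GH, the somatotroph hormone, is not analysed here. ACOT9, an acyl-CoA thioesterase whose 7 transcript rows carry the same reads, took 11.2% to 68.7% of a library's summed counts. The sum enters those reads more than once. With only the largest transcript row of each gene counted, the share was 3.23% to 27.4%. In 9 libraries fewer than 2000 genes were detected, most of them from the bird with the highest number in its photoperiod. Without these 9 the log2 fold change of CGA was -3.15 at 12La against 14La, 3.05 at 12Lv against 12La and -2.38 at 8L against 16La, all 3 past the threshold as with them.

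CGA was detected in all 54 birds, with 12442 counts in all and between 10 and 1416 counts in a bird. Its level in CPM (counts per 1000000 counts of the library total) is given for each photoperiod as the lowest, the median and the highest bird. At 16La it was 4107, 5782 and 9219 CPM, and at 14La it was 4572, 7361 and 12650 CPM. At 12La the values were 677, 917 and 1505 CPM. All 6 birds at 12La thus lay below every bird at 14La and at 16La. At 10La they were 464, 1270 and 2179 CPM, and at 8L 1116, 1310 and 2070 CPM. On this scale the 8L birds were the most alike, with a coefficient of variation of 24.8%, and the ranges of 12La, 10La and 8L overlapped.

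On the return the birds at 10Lv had 2271, 2995 and 4655 CPM. Every bird at 10Lv was above every bird at 8L. At 12Lv the values were 5177, 6364 and 15010 CPM, with all 6 birds above those at 10Lv. At 14Lv they were 3634, 6012 and 12559 CPM, and at 16Lv 2071, 4322 and 12792 CPM. The coefficient of variation was 75.1% at 16Lv, where the lowest bird stood level with the highest at 8L and was the library with 10 CGA counts among 4828 in all.

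**Figure D1:**
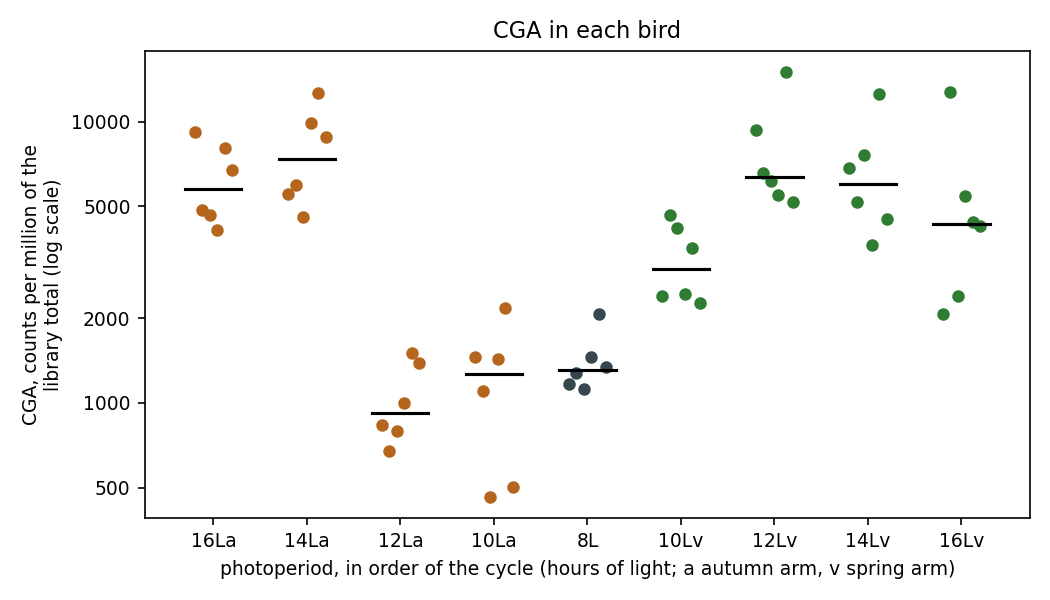
CGA level in CPM of the library total (log axis) in each of 54 birds, by photoperiod in order of the cycle; points are birds, lines are medians of 6 birds, brown is the autumn arm, grey 8L and green the spring arm. The 6 birds at 12La lie between 677 and 1505 CPM, below all birds at 14La, and the 6 birds at 12Lv between 5177 and 15010 CPM.

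Across all 9 photoperiods CGA differed with an adjusted p of 5.82e-10 (edgeR's quasi-likelihood test with Benjamini-Hochberg adjustment over 826 genes). It had the smallest p of the 826 genes, of which 4 (0.484%) were past the threshold of 0.05. In a linear contrast on day length it rose by 0.29 ± 0.03 log2 units per hour of light (SE; edgeR adjusted p = 8.91e-09), and 5 genes (0.605%) had such a slope. Every adjusted p from edgeR, DESeq2 or limma below is over all genes tested by that tool. The labels do not say that birds of a photoperiod were kept apart, so p values measure the spread between these birds.

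The levels were ordered by mean log2 CPM. From high to low the order was 14La, 12Lv, 14Lv, 16La, 16Lv, 10Lv, 8L, 10La and 12La. Of the 8 pairs of neighbours in that order, only 10Lv against 8L differed, by 1.18 on the log2 scale (exact permutation test, two-sided p = 0.00216, adjusted p = 0.00433 over the 36 pairs of photoperiods). The smallest p that 924 arrangements of 6 against 6 birds allow is 0.00216. The other 7 neighbour differences were 0.01 to 0.47 and did not pass, which does not show that those levels were equal.

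Of all 36 pairs, 22 were past the threshold in that test, and in 18 of these the birds of both photoperiods did not overlap. The photoperiod 10Lv stood between the high and the low levels and differed from 7 of the 8 others, the exception being 16Lv. The 3 photoperiods 12La, 10La and 8L each differed from 6 others and passed against none of each other. The 4 photoperiods 16La, 14La, 12Lv and 14Lv each differed from 4 others and not from each other. 16Lv differed from 3, namely 12La, 10La and 8L. With deposited CPM 19 pairs passed, and 16Lv then differed from no photoperiod (exact permutation tests, adjusted p = 0.0779 against 12La, 0.0956 against 10La and 0.102 against 8L). With CPM after edgeR's scaling or from largest-transcript counts 22 passed. The birds did not overlap in 16 pairs with deposited CPM, in 15 after edgeR's scaling and in 18 from largest-transcript counts. These were not all the same pairs. Birds at 16Lv and 8L were apart only in CPM of the library total, at 2071.25 against 2070.46 CPM, and overlapped on each other scale. Those at 10Lv and 14La overlapped in CPM of the library total and not from largest-transcript counts.

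Mean CPM, in place of mean log2, was lowest in the same 4 photoperiods whichever total the counts were divided by. Division by summed totals, by totals of largest transcripts, by totals without ACOT9 and by the authors' factors all placed 10Lv, 8L, 10La and 12La at ranks 6, 7, 8 and 9 by mean CPM. By mean log2, 10La lay below 12La with deposited CPM (difference -0.0187) and with largest-transcript CPM (-0.0342), neither past the threshold. The top changed also by mean CPM. The highest mean was at 12Lv under the first 3 and at 14La in the deposited CPM, with 10170 CPM at 14La and 8384 at 12Lv.

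The steps of the cycle asked where the change took place. In the autumn arm it lay in the step from 14 to 12 h of light. CGA fell by 2.89 ± 0.38 on the log2 scale at 12La against 14La (SE; edgeR adjusted p = 5.00e-07), when 3 genes (0.363%) passed. The values were 21 to 157 counts in birds at 12La, against 199 to 923 counts in birds at 14La. The steps beside it did not pass. The log2 fold change was 0.40 ± 0.35 for 14La against 16La, 0.09 ± 0.35 for 10La against 12La and 0.20 ± 0.35 for 8L against 10La (SE; edgeR adjusted p from 0.998 to 0.999). The sign for 10La against 12La turned with the other scaling, and none of the 826 genes was called in any of these 3 steps (0%).

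In the spring arm the increase was spread over a pair of steps that did not pass singly over all genes. The log2 fold change was 1.10 ± 0.36 at 10Lv against 8L and 1.38 ± 0.36 at 12Lv against 10Lv (SE), with edgeR adjusted p values of 0.429 and 0.122. Only 1 gene of 826 (0.121%) passed in each. Both steps passed with DESeq2 (adjusted p = 0.0313 and 0.00362), and both separated the birds without overlap in CPM of the library total. The birds at 10Lv and 8L overlapped in CPM after edgeR's scaling. Those at 12Lv and 10Lv overlapped in deposited CPM. With the rank of a bird's number as a block in edgeR, 12Lv against 10Lv passed too (1.25, adjusted p = 0.0358), and 10Lv against 8L did not. Of 12 alternative fits, 10 left 10Lv against 8L and 8 left 12Lv against 10Lv short of the threshold. Beyond 12 h the values did not go up further. The log2 fold change was -0.35 ± 0.35 at 14Lv against 12Lv and -0.41 ± 0.35 at 16Lv against 14Lv (SE; edgeR adjusted p = 1.00 for both), with no gene called (0%). These values hung on single birds. With 1 bird left out they ran from -0.75 (14Lv replicate 5) to -0.000468 (12Lv replicate 5) for 14Lv against 12Lv, and from -0.85 (16Lv replicate 2) to -0.0619 (14Lv replicate 5) for 16Lv against 14Lv.

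The 2 arms were compared at matched day lengths, which asks whether the same hours of light gave the same level when days were getting longer or shorter. At 12 h they did not. CGA was 2.77 ± 0.38 higher on the log2 scale at 12Lv than at 12La (SE; edgeR adjusted p = 1.31e-06), when 3 genes (0.363%) passed and the median of all genes was -0.22. At 10 h the log2 fold change was 1.30 ± 0.36 for 10Lv against 10La (SE; edgeR adjusted p = 0.267, no gene called, 0%). It passed with DESeq2 (adjusted p = 0.00648), with the rank block in edgeR (1.36, adjusted p = 0.0252) and in the permutation test over pairs (exact, adjusted p = 0.00433). In 8 of 12 alternative fits it did not pass. At 14 h the log2 fold change was -0.46 ± 0.35 for 14Lv against 14La (SE; edgeR adjusted p = 0.995, 0%). Library depth differed between the arms too. Median library totals were 72031 counts at 14La, 67097.5 at 12La and 43219 at 10La. They were 31695 at 14Lv, 28160 at 12Lv and 21086.5 at 10Lv, so arm and depth went together. The call at 12 h was kept with the total as covariate. That covariate rests on the spread of totals within photoperiods, and the part of depth in the difference between the arms was not otherwise tested.

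**Figure D2:**
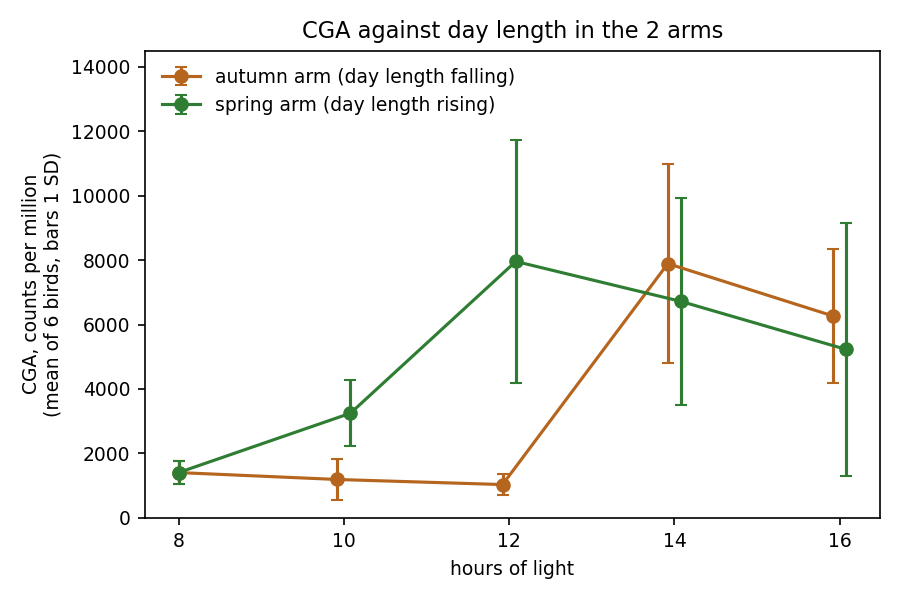
Mean CGA level in CPM (bars 1 SD, n = 6 birds) against hours of light, with the autumn arm in brown and the spring arm in green. At 12 h the green mean is 7959 and the brown mean 1033 CPM, and at 14 h the brown and green means lie within 1 SD of each other.

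Tests of the difference between the arms' own steps, and of their mean over 14, 12 and 10 h, were chosen after the data were seen. The change between 12 and 14 h of light differed between arms by -3.23 ± 0.51 on the log2 scale (14Lv minus 12Lv, less 14La minus 12La; SE, edgeR adjusted p = 5.07e-05), with 3 genes called (0.363%). The log2 fold change was -0.35 for 14Lv against 12Lv and -2.89 for 12La against 14La, and CGA had the smallest p of all genes. The change between 10 and 12 h differed by 1.47 ± 0.50 (adjusted p = 0.527) and that between 14 and 16 h by -0.01 ± 0.49 (adjusted p = 1.00; SE, no gene called in either, 0%). Averaged over 14, 12 and 10 h, the spring arm was higher than the autumn arm by 1.21 ± 0.21 on the log2 scale (SE; edgeR adjusted p = 0.000300). CGA was the only gene of 826 past the threshold there (0.121%). That average was not past the threshold with limma on deposited CPM (adjusted p = 0.147) or in edgeR without a filter on low counts (adjusted p = 0.0749). The difference between the straight slopes of the 2 arms, which was not among these added tests, was -0.13 ± 0.04 per hour (spring minus autumn, SE), with an edgeR adjusted p of 0.287. It was -0.22 with limma on deposited CPM (adjusted p = 0.0652).

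The ends of the cycle were compared too. At 8L the birds had 43 to 69 CGA counts, against 168 to 673 counts in the 16La birds, and CGA fell by 2.19 ± 0.37 on the log2 scale (SE; edgeR adjusted p = 0.000192, 4 genes or 0.484% called). At 16Lv the birds had 10 to 511 counts, against 43 to 69 counts at 8L, in libraries of unlike depth. CGA was higher at 16Lv by 1.72 ± 0.36 on the log2 scale (SE; edgeR adjusted p = 0.00668, 2 genes or 0.242% called), while the median of all genes in that comparison was -0.28. This last call was lost without any 1 of 8L replicates 1, 2, 3 and 4 or 16Lv replicates 2 and 4. Without 16Lv replicate 2, which had 12792 CPM, the log2 fold change was 1.32 (adjusted p = 0.245). It was also lost with limma on deposited CPM, without a filter and in a fit of the 12 birds only. For 16Lv against 16La the log2 fold change was -0.47 ± 0.35 (SE; edgeR adjusted p = 1.00), and no gene was called (0%). This value was -0.99 without 16Lv replicate 2, -0.28 without 16Lv replicate 1 and -1.22 with limma on deposited CPM, and it passed in none of these.

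**Figure D3:**
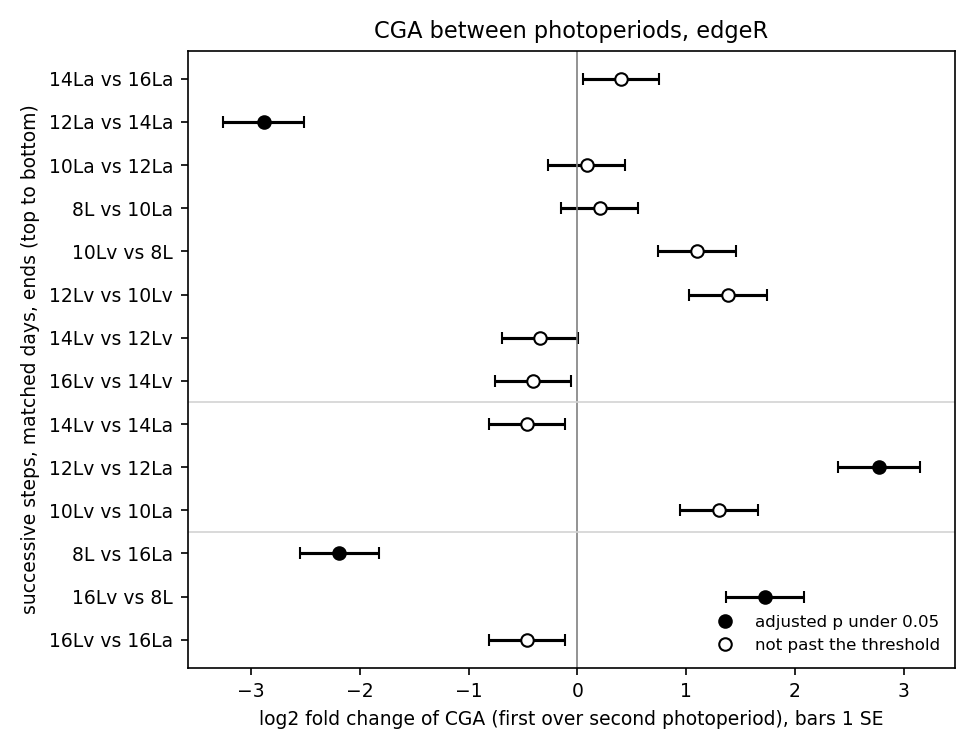
Log2 fold changes of CGA with 1 SE from edgeR for 8 successive steps (top), 3 matched day lengths (middle) and 3 comparisons of the ends (bottom), each the first named photoperiod over the second; filled points have an adjusted p under 0.05. The filled points are 12La against 14La at -2.89, 12Lv against 12La at 2.77, 8L against 16La at -2.19 and 16Lv against 8L at 1.72.

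Of the genes that share CGA's pathway, the beta subunits come first. FSHB, which pairs with CGA in follicle-stimulating hormone, and TSHB, which does so in thyroid-stimulating hormone, have 1 transcript each and were counted 632 and 163 times over all birds. LHB, the beta subunit of luteinising hormone, is not analysed here. Beta subunit counts are given per 100 CGA counts of the same bird. Neither the library total nor ACOT9 enters this ratio, but at few counts it is limited by depth. It compares photoperiods and is no ratio of molecules, since transcript length and capture may differ between genes.

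FSHB counts per 100 CGA counts, as the lowest, the median and the highest bird, were 1.19, 2.71 and 5.79 at 16La and 1.52, 6.77 and 8.49 at 14La. They were 0, 2.53 and 8.92 at 12La and 0, 0.549 and 2.50 at 10La. At 8L the 6 birds had 0 FSHB counts beside 340 CGA counts, which allows up to 0.882 per 100. FSHB was detected in 3 of 6 birds at 12La, in 3 at 10La and in 0 at 8L. At 10Lv the values were 0, 2.25 and 8.00, and at 12Lv 5.33, 10.7 and 22.3. At 14Lv they were 0, 2.30 and 4.60, and at 16Lv 1.38, 4.21 and 24.1. All 6 birds at 12Lv were above all 6 at 14Lv, and the pair of highest birds at 16Lv had 10 and 29 CGA counts.

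On the log2 scale with 0.5 added to both counts, 5 of the 14 comparisons of this ratio passed in exact permutation tests adjusted over the 14. The ratio of FSHB to CGA was lower at 14Lv than at 12Lv by -2.12 (exact, adjusted p = 0.0101) and higher at 12Lv than at 10Lv by 2.33 (exact, adjusted p = 0.0364). It was lower at 8L than at 16La by -1.61 and higher at 16Lv than at 8L by 2.64 (exact, adjusted p = 0.0101 for both). The fifth was 8L against 10La, at -1.27 (exact, adjusted p = 0.0364). The call for 12Lv against 10Lv was lost without any 1 of the 6 birds at 12Lv (adjusted p from 0.0545 to 0.121, exact), and that for 8L against 10La without 8L replicate 2, 3, 4 or 5 (from 0.0545 to 0.0606, exact). For the step in which CGA fell, 12La against 14La, the ratio changed by -0.71 (exact, adjusted p = 0.467), so that a change of the ratio was not detectable there at 21 FSHB counts. At 12Lv against 12La it was higher by 1.84 and did not pass (exact, adjusted p = 0.0606). Of 12 tests with 1 bird left out, 2 passed, without 12La replicate 2 or 4 (exact, adjusted p = 0.0303 for each). It also passed in ratios with no constant and no log, chosen after the data were seen (exact, adjusted p = 0.0424). Comparisons with 8L depend on the added constant, because FSHB is at 0 there and a bird with few CGA counts then gets a higher ratio. The same holds for any other bird at 0 counts of a beta subunit. In 10La replicate 3, with 0 FSHB and 12 CGA counts, the log2 ratio was -4.64. In 16La replicate 3, with 2 FSHB and 168 CGA counts, it was -6.07. With 1 added in place of 0.5, only 14Lv against 12Lv passed. In that step CGA had a log2 fold change of -0.35, and the summed FSHB counts were 43 at 14Lv and 262 at 12Lv.

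TSHB counts per 100 CGA counts took another course. Summed over the birds of a photoperiod, the 16La group had 0.791 and the 14La group 0.539. The groups 12La, 10La, 8L and 10Lv followed with 6.61, 4.77, 6.18 and 4.32. The remaining groups 12Lv, 14Lv and 16Lv had 0.668, 0.837 and 0.486. The ratio was thus high in the 4 photoperiods where CGA, its divisor, was low. With TSHB unchanged, the ratio rises wherever CGA falls. TSHB itself averaged between 36.3 CPM at 14La and 106 CPM at 10Lv from 5 to 29 counts per photoperiod. It was below the filter on low counts. With largest-transcript counts and a minimum count of 3, the log2 fold change of TSHB was 0.47 ± 0.56 at 12La against 14La (SE; edgeR adjusted p = 0.991). At 12Lv against 12La it was -0.20 ± 0.60 (SE; edgeR adjusted p = 0.995). The log2 ratio differed by 3.48 for 12La against 14La and by -2.87 for 12Lv against 12La (exact permutation tests, adjusted p = 0.0303 for both). In 8L birds it exceeded that of 16La birds by 2.86 (exact, adjusted p = 0.0404). The call for 12Lv against 12La was lost without the 9 libraries under 2000 genes (exact, adjusted p = 0.0556). The call for 8L against 16La was lost without 16La replicate 1, 4 or 5 or 8L replicate 1, 2, 3, 4 or 5 (exact, adjusted p = 0.0530 for each). In ratios with no constant and no log, chosen after the data were seen, none of the 14 comparisons passed (lowest exact adjusted p = 0.170).

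**Figure D4:**
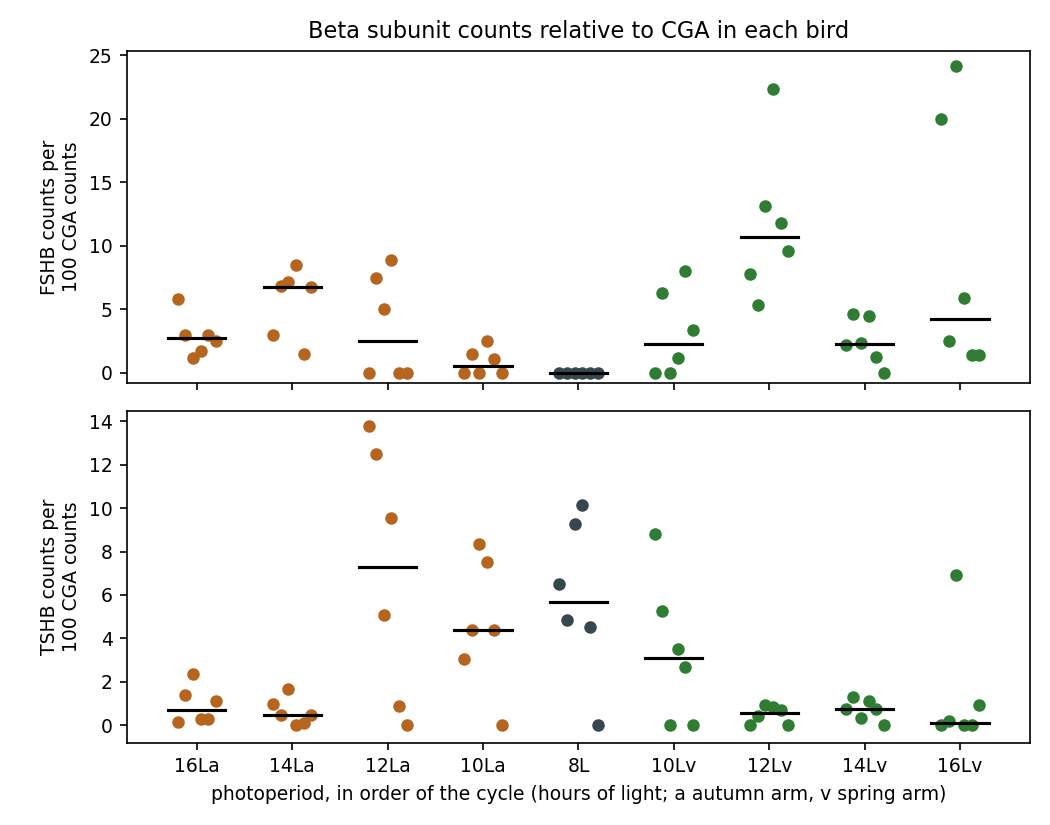
FSHB (top) and TSHB (bottom) counts per 100 CGA counts in each bird by photoperiod; points are birds, lines are medians of 6. FSHB is at 0 in all 6 birds at 8L and at 5.33 to 22.3 at 12Lv, while the TSHB medians are 3.10 to 7.31 from 12La to 10Lv and 0.0978 to 0.751 in the other photoperiods.

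Within a photoperiod, birds with more CGA were compared for other hormone transcripts. After centring log2 CPM on each photoperiod's mean, Pearson's r over 54 birds was 0.183 with FSHB, 0.0691 with PRL, 0.0243 with POMC and 0.0752 with TSHB (permutation within photoperiods, adjusted p from 0.857 to 0.892 over 4 genes). Spearman's rho was 0.180, -0.0153, -0.0573 and 0.0547 in that order (permutation, adjusted p = 0.919 for all). Without the 2 birds farthest from the median of centred CGA, r was 0.134, 0.0932, -0.0101 and 0.0435. With CPM of the library total, no relation was detectable at this depth. With CPM after edgeR's scaling, rho with POMC was -0.362 (permutation, p = 0.0146, adjusted p = 0.0439 over the 3 genes measured on that scale, without TSHB). The corresponding r was -0.386 (permutation, adjusted p = 0.0724). Both genes share that scaling factor. It was 0.364 to 0.584 in replicate 6 of 12La, 10La, 8L, 10Lv, 12Lv and 14Lv, in which 544 to 1541 genes were detected. POMC was the lowest of its photoperiod in each of these libraries, at 1912 to 5054 CPM of the library total. They were left out only with CPM of the library total. The part of the factor and of these libraries in the negative values was not tested.

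The other hormone genes followed CGA to different degrees. Mean CGA at 8L was 17.7% of its highest mean, that of PRL was 14.1% of its own and that of POMC 85.8%. At 12La mean PRL was 43.5% of its highest, where CGA was near its lowest. PRL rose by 0.31 ± 0.04 log2 units per hour of light (SE; edgeR adjusted p = 2.68e-07), and POMC had a slope of -0.03 ± 0.05 (SE; adjusted p = 1.00). PRL had a log2 fold change of -1.34 ± 0.44 at 12La against 14La and 0.12 ± 0.43 at 12Lv against 12La (SE; edgeR adjusted p = 0.493 and 0.999). FSHB passed in both, with -3.62 ± 0.85 and 4.53 ± 0.88 (SE; edgeR adjusted p = 0.0295 and 0.00167), from 21 counts at 12La. FSHB was also the gene called at 10Lv against 8L, at 5.32 ± 1.15 (SE; edgeR adjusted p = 0.0267), with 14 counts at 10Lv and 0 at 8L.

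**Figure D5:**
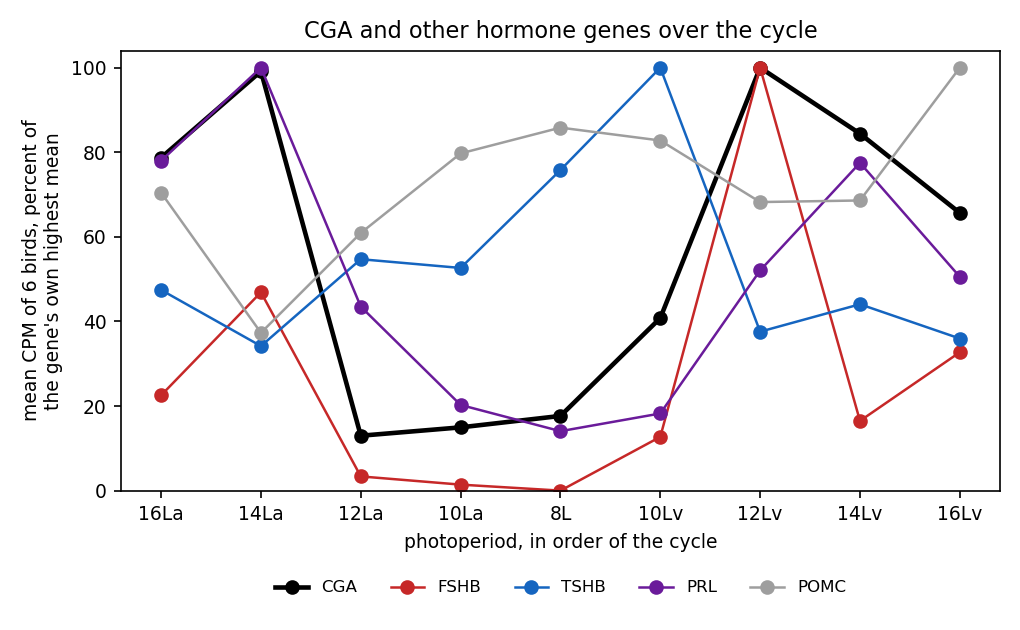
Mean CPM of 6 birds for CGA, FSHB, TSHB, PRL and POMC by photoperiod, each as a percent of the gene's own highest mean (at 12Lv the points of CGA and FSHB coincide at 100). CGA is at 17.7% at 8L and 40.8% at 10Lv, while TSHB has its highest mean at 10Lv.

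The genes most like CGA were named by Pearson's r between fitted log2 means over the 9 photoperiods, among 825 other genes. All points share libraries and scaling, and r is a description with no test. LOC107319226, a protein-coding locus with no symbol, had r = 0.93 and a slope of 0.55 ± 0.08 per hour of light (log2 scale, SE; edgeR adjusted p = 1.62e-06). FAT3, an atypical cadherin, and NELL2, a secreted neural glycoprotein, both had r = 0.91. FAT3 was detected in 22 birds and NELL2 in 48. FSHB followed with 0.87. The next were RPS13 (a ribosomal protein), NRSN1, ATP5F1E (a subunit of ATP synthase), PEBP1, ASRGL1 and CTBP1 (a transcriptional corepressor), with r from 0.75 to 0.78. Of these 10 genes, LOC107319226, FSHB and NELL2 had a slope past the threshold, as had 0.605% of all genes, and genes chosen by r with CGA share its course over day length by that choice. From largest-transcript counts, r was 0.93 for LOC107319226, 0.89 for NELL2 and 0.85 for FSHB, but 0.28 for RPS13 and 0.39 for CTBP1. FAT3 and ASRGL1 were not tested there. PRL had r = 0.74, and the median over all 825 genes was -0.07.

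The lowest r belonged to PTPRK, a receptor tyrosine phosphatase, at -0.93, SYNE1, a nuclear envelope protein, at -0.89, DOCK9 at -0.86, RTN1 at -0.86 and AGRN, the proteoglycan agrin, at -0.83. PTPRK was seen in 20 birds, AGRN in 24 and DOCK9 in 28, and these genes were not tested with largest-transcript counts. From those counts r was -0.93 for SYNE1 and -0.80 for RTN1. None of the 5 genes of lowest r had a slope past the threshold in the main fit. Values ran from -0.47 ± 0.15 per hour for PTPRK to -0.03 ± 0.03 for RTN1 (log2 scale, SE; edgeR adjusted p from 0.334 to 1.00).

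Most other genes of the pathway were too low to be tested. Of 16 listed gonadotroph and pituitary transcription factors with counts, only SIX3 passed the filter. With largest-transcript counts and a minimum count of 3, 7 did, and none had a slope past the threshold. Over all 1460 genes in that fit 9 had one (0.616%). NR5A1, which acts on gonadotroph genes in mammals, had a slope of 0.10 ± 0.07, EGR1, a mediator of gonadotrophin-releasing hormone signals in mammals, 0.18 ± 0.10 and PITX1 -0.01 ± 0.07 (log2 per hour, SE; edgeR adjusted p from 0.818 to 0.994). The median of the 7 was 0.03 and that of all genes 0.00. At 12La against 14La EGR1 had a log2 fold change of -2.98 ± 0.87 and at 12Lv against 12La of 2.37 ± 0.96 (SE; edgeR adjusted p = 0.134 and 0.785). None of the 7 passed in these comparisons, in which 0.479% and 0.548% of all genes did.

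Receptors and activin signalling were lower still. Of 11 listed hypothalamic hormone receptors with a row, 2 were tested in that fit and none passed, with GHRHR, the receptor of growth hormone-releasing hormone, at -0.07 ± 0.04. Of 15 genes of activin, inhibin and follistatin signalling, 2 were tested and none passed, with SMAD3, a signal transducer, at -0.05 ± 0.07. Of 14 thyrotroph and pars tuberalis genes, 5 were tested and none passed. POU1F1, the factor of thyrotrophs, lactotrophs and somatotrophs, had a slope of 0.00 ± 0.04, THRB, a thyroid hormone receptor, 0.05 ± 0.07 and TSHB -0.14 ± 0.06 (log2 per hour, SE; edgeR adjusted p from 0.602 to 0.994).

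Subunits are folded, disulfide-bonded and glycosylated in the endoplasmic reticulum. Of 16 folding genes 11 were tested in that fit and none had a slope past the threshold, with a median of 0.05 per hour on the log2 scale. PDIA3, a disulfide isomerase, had the largest value of them at 0.14 ± 0.04 (SE; edgeR adjusted p = 0.208), HSP90B1, a chaperone, had 0.10 ± 0.05 and HSPA5, the chaperone BiP, 0.08 ± 0.05. Of 17 genes for sugar chains 7 were tested and none passed. STT3B, a catalytic subunit of oligosaccharyltransferase, had the largest value of these 7 at 0.19 ± 0.07 (SE; adjusted p = 0.265). OST4, a small subunit of that complex, had 0.06 ± 0.05, and the median of the 7 was 0.06. At 12Lv against 12La STT3B had a log2 fold change of -1.53 ± 0.71 and at 12La against 14La of 0.09 ± 0.52 (SE; edgeR adjusted p = 0.921 and 0.991). ESR1, the only steroid receptor tested, had 0.06 ± 0.06. Of the 3 hormone subunits tested there, FSHB rose with day length beside CGA itself and TSHB did not pass, where 0.616% of all genes had a slope.

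Markers of other tissue were summed and not tested. Summed over COL1A1, COL1A2, COL3A1 and DCN, all detected, fibroblast markers had a median of 284 CPM (range 65.9 to 1061) at 12La, against 120 CPM (77.3 to 279) at 14La. At 12Lv their sum ranged from 55.1 to 227 CPM. Of 6 neural markers, 4 were detected, and their sum at 12La had a median of 59.6 CPM and reached 4689 CPM in the highest bird, which was replicate 5. Without that bird the log2 fold change of CGA was -2.99 at 12La against 14La and 2.92 at 12Lv against 12La (edgeR adjusted p = 5.04e-06 and 8.92e-06). The part of fibroblast markers in the result was not tested. ACOT9 had a median share of summed counts of 29.7% at 12La, 34.8% at 14La and 33.2% at 12Lv. Without ACOT9 in the table every edgeR call of CGA in the steps, matched day lengths and ends was kept.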

How the data were processed

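Pituitary RNA of 54 male quail was sequenced as direct cDNA with Oxford Nanopore native barcoding, per the labels' protocols. The authors deposited 40282 transcript rows of estimated counts and a CPM table per gene. Salmon 0.14.2, minimap2 2.17 and edgeR 3.24.3 are named in the submitters' processing notes. What each did, and on which build, is not given in the sources used here. Columns of the deposited CPM table sum to between 327092 and 1790364, so they were treated as a normalised signal by the authors and used only as an alternative. All transcripts matched the Coturnix japonica 2.1 gene table, and no coordinates are printed.

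Deposited estimated counts (0.283% not whole) were rounded and summed per gene. Genes with 2 transcripts had equal values on both in 53.6% of 9983 values (tolerance 0.01), and summed counts were 2.08 times largest-transcript counts; CGA, FSHB and TSHB have 1 row and are not affected, but library totals are. Floors are 3 counts and cover counting error only. Groups were taken from the treatment label. edgeR 4.0.16 (TMM scaling, a minimum count of 10 in filterByExpr, glmQLFit on all 54 birds, 45 residual degrees of freedom) tested 826 genes in R 4.3.3, with Benjamini-Hochberg adjustment and a threshold of 0.05. Fits were tested on simulated data. CGA pairs used exact permutation tests of log2(CPM + 1), and beta subunit ratios exact permutation tests with 0.5 added; correlations used 100000 resamples within photoperiods (NumPy 2.4.6, SciPy 1.17.1). Alternatives were DESeq2 1.42.0, limma 3.58.1, other scalings and filters, and leaving out birds. Since limma was run only on log2 deposited CPM, tool and scale changed together there. Genes are named by membership of the pathway lists and by r with CGA. CGA, the lists and the tests were chosen with earlier results of these data known. LHB was planned for the ratios and is not analysed here. The values of some listed genes are not reported here.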

Additional observations from a re-analysis of the deposited data

Results flagged for a closer look

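In 45 groups of 6 birds the most extreme bird was set against the range of its group (Dixon's 95% critical value). The FSHB groups at 8L, with all birds at 0, are among the 45 but have no range and could not be flagged. Chance flags about 1 in 20 groups of normally distributed values, which low counts with birds at 0 need not be. CGA in 8L replicate 5 was 2070 CPM, against 1458 CPM in the next bird. CGA in 16Lv replicate 2 was 12792 CPM, against 5457 CPM in the next. FSHB in 14Lv replicate 6 was 0 CPM, against 152 CPM in the next lowest bird, in a library with 544 genes detected. TSHB in 16Lv replicate 3 was 165 CPM, against 39.3 CPM in the next, and per 100 CGA counts it was 6.90 there, against 0.922, in a library with 29 CGA counts.

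The change of CGA between 12 and 14 h of light differed between the arms by -3.23 on the log2 scale (spring minus autumn, edgeR's quasi-likelihood test, adjusted p = 5.07e-05). Every bird at 12La was below every bird at 14La, while birds at 14Lv and 12Lv overlapped.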

How the results depend on the processing

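CGA kept its direction and its call under every alternative run for 12La against 14La, 12Lv against 12La, 8L against 16La, the slope and the 12 to 14 h difference between arms. For 16Lv against 8L the call was lost without a filter (1.72), with limma (1.23) and in the 12 birds alone (1.83), and leaving out 1 bird gave 1.32 to 1.92. The mean of 14, 12 and 10 h missed the threshold without a filter (1.04) and with limma (0.97). Calls were gained for 10Lv against 10La with RLE scaling (1.43), DESeq2 (1.40), largest transcripts (1.43) and the rank block (1.36), for 12Lv against 10Lv (1.35, 1.34, 1.28 and 1.25 in that order) and for 10Lv against 8L with RLE scaling (1.26) and DESeq2 (1.27). The largest-transcript gains came at a minimum count of 10, with 210 genes tested, and not at a minimum count of 3. The same holds for the largest-transcript sign change of 10La against 12La given next. Differences near 0 changed sign: 10La against 12La with RLE scaling (-0.0242), limma (-0.0187) and largest transcripts (-0.00468; 1 bird left out, -0.0272 to 0.36), 8L against 10La without libraries under 2000 genes (-0.0358), and the 14 to 16 h difference between arms with the total as covariate (0.0196), without libraries under 13226 counts (0.32), without those under 2000 genes (0.36) and without ACOT9 (0.0356; 1 bird left out, -0.44 to 0.36). Of 14 FSHB ratios 5 passed, 1 with 1 added, 3 without libraries under 2000 genes and 4 to 8 with 1 bird left out. Of 14 TSHB ratios 3 passed, 0 in plain ratios and 2 to 5 with 1 bird left out. FSHB ratios changed sign for 10Lv against 10La (-0.12 with 1 added, -0.0841 without libraries under 2000 genes, -0.38 to 0.53 with 1 bird left out), 16Lv against 16La (-0.0523) and 16Lv against 14Lv (-0.14, both without libraries under 2000 genes). TSHB ratios changed sign without libraries under 2000 genes for 16Lv against 16La (-0.69; 1 bird left out, -0.0193 to 0.95), 8L against 10La (0.30; 1.27 as plain ratios; -0.21 to 0.43) and 16Lv against 14Lv (-1.12; -0.49 to 0.48), and for 10La against 12La with 1 bird left out (-0.46 to 0.24). Within photoperiods r changed sign for PRL (-0.0180 with largest transcripts, -0.279 with TMM scaling, -0.0704 without libraries under 2000 genes), POMC (-0.0686, -0.386 and -0.0240 in that order, -0.0101 without 2 birds) and TSHB (-0.0643 without libraries under 2000 genes). The causes were not tested. The labels carry bird numbers and no replicate numbers shared by photoperiods, so that no birds are paired by design; the rank block above uses the order of bird numbers, and most libraries under 2000 genes come from the highest number. With 10 to 1416 CGA counts per bird, FSHB and TSHB ratios at low CGA are limited by depth.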
